A study of Mus musculus with 36 samples.

Results

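The genes described here are 8 members of the liver X receptor (LXR) pathway in mouse liver, out of 53715 gene identifiers counted. They were listed by name for their roles. Nr1h3 and Nr1h2 encode the receptors LXRα and LXRβ, Abcg5, Abcg8, Abca1 and Abcg1 encode sterol transporters, and Mylip and Lpcat3 are further LXR targets. The list was chosen by role, and selected on the fold changes of these genes between the 3 diets, which were known when it was drawn up. Their levels and fold changes between diets are therefore a description, without p-values. Only relations among mice on the same diet, and the other genes of the pathway, are tested. The lists of other genes were also written with earlier results of these data known. Their calls between diets are read with that limit.

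Livers of 36 male C57BL/6 mice, an inbred laboratory strain, were profiled by RNA sequencing at 10 weeks of age. From 4 weeks of age, for 6 weeks, mice ate AIN93G, a purified rodent diet (Control), the diet with 10% by weight of red tomato powder (Red), or the diet with 10% of tangerine tomato powder (Tangerine). Red tomatoes carry lycopene mainly in the all-trans form and tangerine tomatoes mainly in cis forms. Each diet had 12 libraries with separate mouse numbers, read here as 12 mice. The labels put the group size at a range with a lower bound under 12, so p-values measure the spread between these libraries.

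LXRs are nuclear receptors that bind oxidised cholesterol derivatives and act on DNA as partners of the retinoid X receptors. When sterols accumulate they raise the transcription of genes that move cholesterol out of cells and of genes that make fatty acids. In hepatocytes ABCG5 and ABCG8 join into one transporter at the canalicular membrane, which passes cholesterol and plant sterols into bile, and loss of either protein causes sitosterolaemia in people.

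Abcg5 and Abcg8 lie head to head on chromosome 17 (GRCm38; GENCODE M21 annotation), which is why the sequence between them is shown first. Abcg5 (ENSMUSG00000040505) spans chr17:84658234-84683011 on the minus strand and Abcg8 (ENSMUSG00000024254) spans chr17:84676302-84700333 on the plus strand. The starts of transcripts Abcg5-201 and Abcg8-201 leave 109 bases between them, at chr17:84683012-84683120. Transcript Abcg8-202 starts at 84676302, inside Abcg5. The 109 bases are printed on the plus strand, which is the direction of Abcg8, from the RefSeq promoter table of GRCm38.p6; capitals mark the letters of GATA boxes (GATAA on the minus strand) and of a TATA box (TATAAA on the minus strand).
Abcg5 to Abcg8: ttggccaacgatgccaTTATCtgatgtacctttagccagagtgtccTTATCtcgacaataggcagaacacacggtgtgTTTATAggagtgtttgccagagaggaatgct
All 3 capitalised runs read in the direction of Abcg5, at bases -21 to -17, -51 to -47 and -84 to -79 from its start. On either strand, GATAA occurs in 23% and TATAAA in 13% of 27018 mouse promoter windows of 250 bases.

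Abca1 (ENSMUSG00000015243) spans chr4:53030787-53159895 on the minus strand, and its promoter is shown because it carries the letters of an LXR element. The 100 bases before its start, chr4:53159896-53159995, are printed in the direction of the gene, with the LXR element (GGTNA, any 5 bases and GGTNA again, here on the opposite strand at bases -67 to -53) and a TATA box (bases -29 to -24) in capitals.
Abca1: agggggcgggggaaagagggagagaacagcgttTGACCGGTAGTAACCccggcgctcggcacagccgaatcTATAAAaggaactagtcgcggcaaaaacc
The element was found in 0.629% of the promoter windows. Of the 8 genes, 7 had a window in the table. Nr1h3 and Abcg8 had 2 windows each, and 1 window per gene was searched. Among the windows searched, only that of Abca1 held these letters. A match is a description of letters, and a window without one says nothing about LXR binding.

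Library totals ranged from 21290169 to 33810573 counts, and all 8 genes passed the filter on low counts with 14068 genes in all. Hepatocyte markers (5 of 5 tested, Alb and others) summed to a median of 109200 CPM (counts scaled to a common library size) on Control, 103400 on Red and 101900 on Tangerine. Libraries are named by diet and mouse number, and 4 stood apart. Red 186 held 153.2 CPM of T cell markers, against at most 4.064 in any other library, and Tangerine 216 held 9.455 CPM of pancreatic acinar markers, against at most 0.33. Control 137 and Tangerine 225 had the lowest sums of Kupffer cell markers (62.9 and 89.33 CPM, median of other libraries 167.9) and of sinusoidal endothelial markers (36.23 and 49.81 CPM, median of other libraries 107.5). In whole liver, fewer cells of a type and less RNA per cell cannot be told apart.

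Between diets, Abcg5 and Abcg8 had their lowest means in the mice fed red tomato and were each 1.27-fold higher on Tangerine than on Red. Abcg1 had higher means on both tomato diets than on Control, at a low level. The receptors Nr1h3 and Nr1h2 differed by no more than 0.07 on the log2 scale in any comparison. In the fit over all genes (edgeR's quasi-likelihood test, Benjamini-Hochberg adjustment over 14068 genes, threshold 0.05), 0 of the 8 genes were called for Red against Control, where 0.149% of all tested genes were (0.0498% higher and 0.0995% lower); DESeq2 called 1 (Abcg5; 1.37% of all genes it tested) and limma-voom 2 (Abcg5 and Abcg8; 10.5% of all genes). For Tangerine against Control 0 were called by any of the 3 tools, where edgeR called 0.0142% of tested genes, DESeq2 0.0498% and limma-voom 0.0142%. For Tangerine against Red, 2 of the 8 genes were called, Abcg5 and Abcg8, both higher on Tangerine, and 1.71% of tested genes were (0.732% higher and 0.981% lower). DESeq2 and limma-voom called the same 2 genes, beside 3.39% and 5.2% of all genes. At an unadjusted edgeR p under 0.05 the counts were 3, 1 and 2 of the 8, beside 13.3%, 5.47% and 15.1% of all tested genes in the 3 comparisons. Because the list was chosen with these comparisons known, nothing is read from those counts. The median log2 fold change of the 8 genes was 0.01, 0.03 and -0.02 in the 3 comparisons, beside 0, -0.01 and 0 over all tested genes. The comparisons share libraries: Red enters the first and the last, and Control the first and the second.

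**Figure D1:**
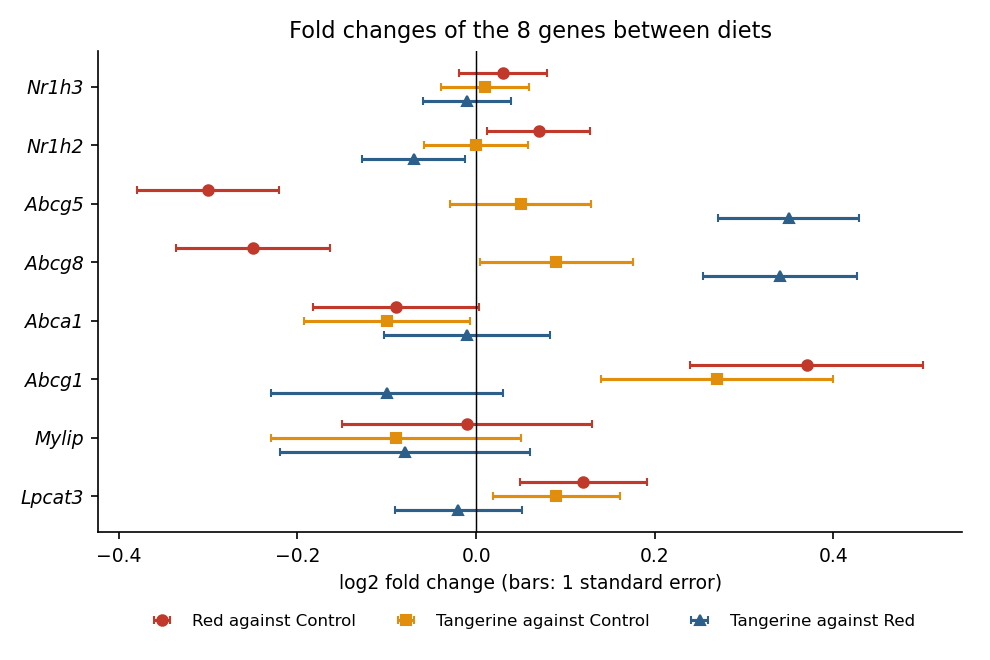
Log2 fold changes (x axis) of the 8 genes (y axis) in the 3 diet comparisons, with bars of 1 standard error. Abcg5 and Abcg8 lie left of 0 for Red against Control and right of 0 for Tangerine against Red, and the receptors Nr1h3 and Nr1h2 lie near 0 throughout.

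Ordered by level per length (CPM per kilobase of annotated exon, mean ± SD over 36 libraries), Nr1h3 came first at 33.9 ± 2.58, followed by Abcg8 at 32.3 ± 5.73, Lpcat3 at 29.5 ± 3.6 and Abcg5 at 29.1 ± 4.91. Each of these 4 lay within 1 SD of its neighbour in the order. Abca1 followed at 18.9 ± 2.94, Nr1h2 at 9.63 ± 0.953, Mylip at 3.37 ± 0.731 and Abcg1 at 0.792 ± 0.194, each apart from its neighbours by more than their SDs. LXRα transcripts were thus more abundant per length than LXRβ transcripts in every diet. Among mice, the receptors varied least (coefficients of variation of 7.61% for Nr1h3 and 9.89% for Nr1h2), and Abcg1 and Mylip varied most (24.5% and 21.7%).

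The receptors lay close together on the 3 diets. Nr1h3 (ENSMUSG00000002108, chr2:91184061-91202834, minus strand), whose product LXRα is the main LXR of liver, ran from 79.1 through a median of 82.3 to 101 CPM on Control. It ran from 67.9 through 87.6 to 102 CPM on Red, and from 79.2 through 83.9 to 96.4 CPM on Tangerine. The ranges lay on top of each other, and the fold changes were 0.03 for Red and 0.01 for Tangerine against Control and -0.01 in Tangerine against Red (log2, SE 0.049 each). Nr1h2 (ENSMUSG00000060601, chr7:44549616-44553951, minus strand), which encodes the widely expressed LXRβ, had medians of 31, 32.6 and 32.4 CPM on Control, Red and Tangerine. Its lowest and highest libraries were 27.8 and 38.6 CPM on Control, 29.6 and 43.4 on Red, and 28.9 and 34.9 on Tangerine. The differences of Nr1h2 were 0.07, 0 and -0.07 (log2, SE 0.058), again with overlapping groups.

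Abcg5, which encodes one subunit of the biliary sterol transporter, was lowest on Red. On Control its level ran from 60.2 through a median of 83.8 to 99.9 CPM, on Red from 47.9 through 67.9 to 77.6 CPM, and on Tangerine from 71 through 86 to 103 CPM. None of the 12 Red libraries reached the Control median, all 12 Tangerine libraries lay above the Red median, and 8 of them lay above the highest Red library. The groups still overlapped. The means were 83.2 ± 11.6 CPM on Control, 67.5 ± 7.72 on Red and 86 ± 12.4 on Tangerine (SD, n = 12 each). The log2 fold change was -0.3 (SE 0.079) for Red and 0.05 (SE 0.079) for Tangerine against Control, and 0.35 (SE 0.079) for Tangerine over Red.

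Abcg8, which encodes the other subunit, had the same order of diets. Its level ran from 82.8 through a median of 124 to 168 CPM on Control, from 75.7 through 107 to 120 CPM on Red, and from 106 through 132 to 170 CPM on Tangerine. None of the 12 Red libraries reached the Control median, and 10 of 12 Tangerine libraries lay above the Red median, with 9 above the highest Red library. The log2 fold changes were -0.25 for Red and 0.09 for Tangerine against Control, and 0.34 for Tangerine over Red (SE 0.086 each). For both genes the lowest of all 36 libraries was Red 186, the library with T cell markers, and the highest was Tangerine 215. Without Red 186 and Tangerine 216 the Tangerine against Red differences were 0.3 for Abcg5 and 0.29 for Abcg8, and neither gene was called in the smaller set. Of all tested genes, 86 were called in that set, against 241 over all 36 libraries. Abcg8 was not called without Red 175, Red 186, Tangerine 215, Tangerine 216 or Tangerine 217, and over all 36 such fits its difference ran from 0.31 to 0.37. With the mouse number as a covariate both differences were 0.31 and neither gene was called, where 32 of all tested genes were.

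**Figure D2:**
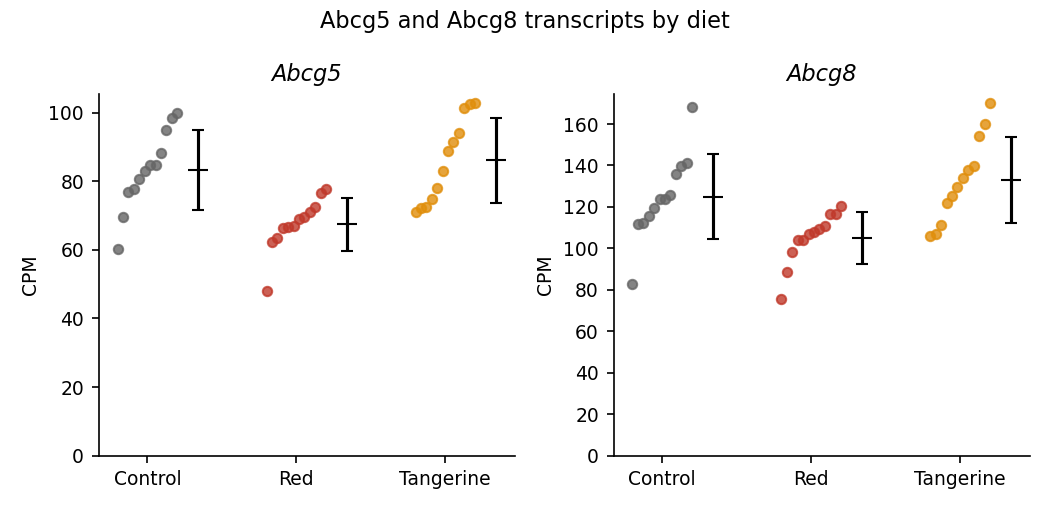
Abcg5 and Abcg8 levels (y axis, CPM, from 0) in the 12 livers of each diet (x axis), 1 point per library in rising order, with the mean and SD beside them. The Red points lie below the other diets for both genes, with overlap, and the lowest Red point is 47.9 CPM for Abcg5 and 75.7 CPM for Abcg8.

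The ratio of the 2 transcripts did not separate the diets. Abcg8 stood at 1.09 ± 0.1 times Abcg5 per length on Control, 1.13 ± 0.074 on Red and 1.12 ± 0.091 on Tangerine (SD, n = 12 each). The annotated exons of the pair share 82 bases on opposite strands, which is 3.024% of the exon length of Abcg5 and 2.187% of that of Abcg8. The library kit keeps strand, but the strand setting of the counting is not given in the sources used here, so reads of the shared bases may have been counted for either gene.

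Abcg5 and Abcg8 also varied together among mice on the same diet, a relation the choice of genes did not use. After the mean of each diet was subtracted from log2 CPM, Pearson's r was 0.85 over 36 livers (permutation within diets, p = 1e-05, the smallest 100000 resamples can give; adjusted p = 0.00014 over the 28 pairs of the 8 genes). Spearman's rho was 0.709 (permutation p = 1e-05, adjusted p = 0.00028). The relation held on each diet, with r of 0.851 on Control, 0.864 on Red and 0.843 on Tangerine (n = 12 each), and at 0.769 without Control 188 and Red 186, the libraries farthest from the median. Among 10968 genes compared, Abcg8 was the gene most like Abcg5, and Abcg5 the gene most like Abcg8. As a description with no test, the 5 genes outside the list most like Abcg5 over the 36 livers were Abcc6 (r = 0.799), Ttc38 (0.775), the clock repressor Cry2 (0.761), Npc1 (0.738) and Cnn3 (0.724). For Abcg8 they were Kcnn2 (r = 0.784), Npc1 (0.78), Sorbs3 (0.778), Epas1 (0.772) and Ppargc1b (0.77). Npc1, which moves cholesterol out of lysosomes, was in both sets.

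**Figure D3:**
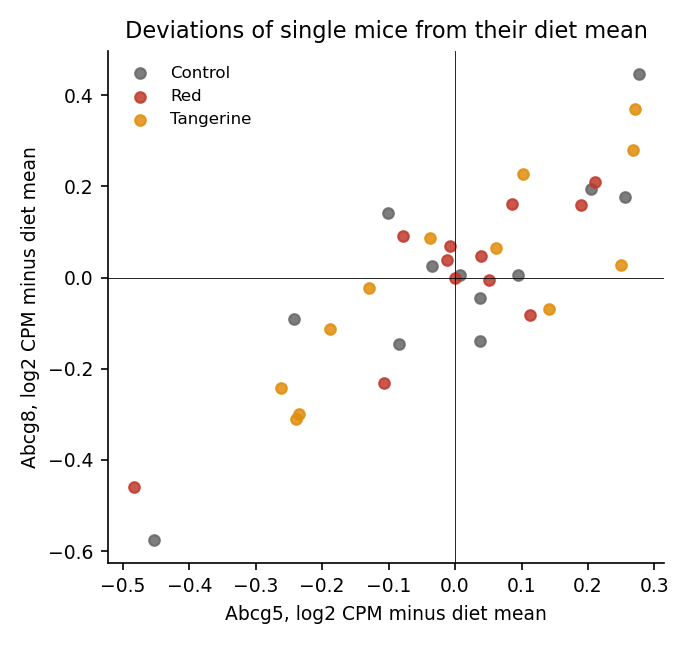
Deviation of each liver from the mean of its diet (log2 CPM) for Abcg5 (x axis) and Abcg8 (y axis), 1 point per library and a colour per diet. Points of all 3 diets rise along 1 band (r = 0.85, n = 36), with Control 188 and Red 186 at its lower end.

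The level of the pair moved with the circadian clock genes, of which 6 of 10 tested were called for Tangerine against Red, where 1.71% of all tested genes were. A clock score was computed for each liver as the first principal component of 10 clock genes (68.7% of their variance), in which a high value goes with high Dbp, an output gene of the clock. The score averaged 0.663 ± 2.39 on Control, -2.24 ± 1.9 on Red and 1.57 ± 1.98 on Tangerine (SD, n = 12 each), the same order as Abcg5 and Abcg8. Within diets, Abcg5 correlated with the score at r = 0.596 (permutation p = 0.00019, adjusted p = 0.00076 over the 8 genes) and Abcg8 at r = 0.647 (permutation p = 3e-05, adjusted p = 0.00024). By rank the relations were weaker, with rho of 0.401 for Abcg5 and 0.434 for Abcg8 (adjusted permutation p = 0.0812 for both), and without Control 188 and Red 186 r was 0.479 and 0.528. By diet, r for Abcg5 was 0.677 on Control, 0.354 on Red and 0.705 on Tangerine, and r for Abcg8 was 0.711, 0.383 and 0.778 (n = 12 each). The other 6 genes had r between -0.085 and 0.178. With the clock score as a covariate, the Tangerine against Red difference was 0.13 (SE 0.085) for Abcg5 and 0.08 (SE 0.089) for Abcg8, and the Red against Control difference was -0.14 (SE 0.077) and -0.05 (SE 0.081). Neither gene was called in that fit, and the loss of calls was not particular to them. Of all tested genes, 0 were called for Tangerine against Red, against 241 without the covariate. For Red against Control 4 were called, against 21 without it. The labels used here give no hour of tissue collection, and diet and clock phase cannot be told apart where they differ together.

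**Figure D4:**
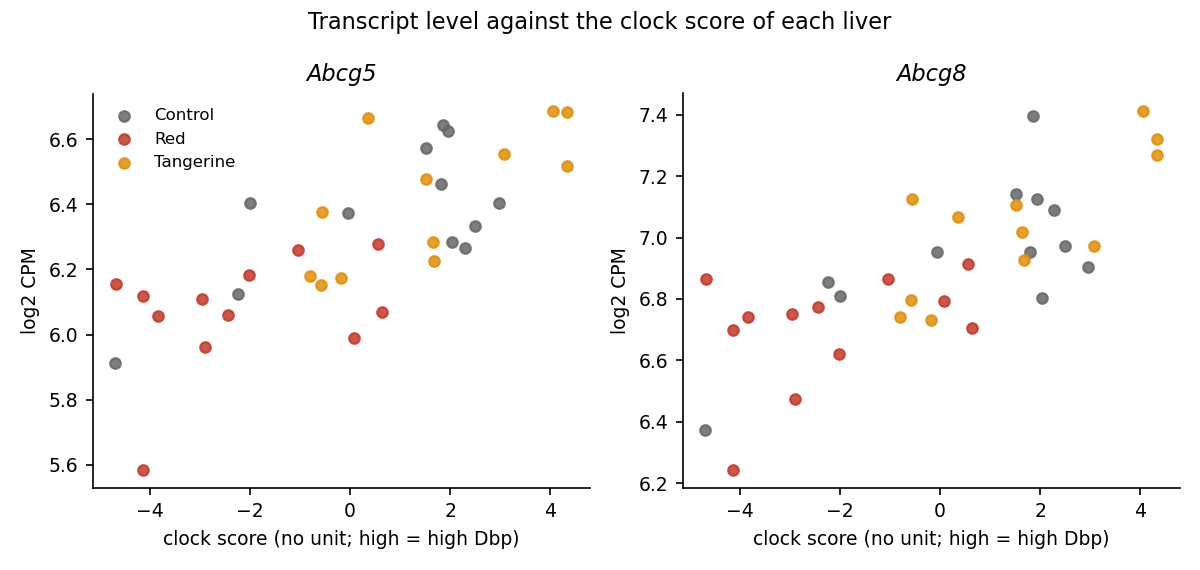
Level of Abcg5 and of Abcg8 (y axis, log2 CPM) against the clock score of each liver (x axis, no unit), 1 point per library and a colour per diet. Red livers mostly lie at low scores and low levels, and Tangerine livers reach the highest of both.

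Abca1, the transporter that loads cholesterol and phospholipid onto apolipoprotein A-I, had overlapping levels on the 3 diets. Its level ran from 114 through a median of 207 to 259 CPM on Control, from 159 through 194 to 229 on Red, and from 157 through 196 to 229 on Tangerine. The log2 fold changes were -0.09 for Red and -0.1 for Tangerine against Control, and -0.01 for Tangerine over Red (SE 0.093 each).

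Abcg1 (ENSMUSG00000024030, chr17:31057675-31117988, plus strand), which exports cholesterol to mature lipoprotein particles and is high in macrophages, was the scarcest of the 8 per length. On Control it ran from 2.3 through a median of 5.27 to 6.26 CPM, on Red from 4.6 through 6.33 to 10.5, and on Tangerine from 3.21 through 6.18 to 7.89. In each tomato diet 9 of 12 libraries lay above the Control median, and 6 on Red and 5 on Tangerine lay above the highest Control library. The log2 fold changes were 0.37 for Red and 0.27 for Tangerine against Control, and -0.1 for Tangerine over Red (SE 0.13 each). Its highest library was Red 186, the library with T cell markers, and its lowest was Control 137, the library with the lowest Kupffer cell and endothelial markers. Without those 2 libraries and Tangerine 216 (log2 scale), Abcg1 differed from Control by 0.22 on Red and 0.2 on Tangerine.

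Mylip (ENSMUSG00000038175, chr13:45389742-45412022, plus strand) encodes IDOL, a ubiquitin ligase that limits the uptake of lipoprotein cholesterol. Its level ran from 3.75 through a median of 11.9 to 14.9 CPM on Control, from 8.01 through 11.5 to 14.9 on Red, and from 7.54 through 10.4 to 12.8 on Tangerine. The groups overlapped over most of their range, and the log2 fold changes were -0.01, -0.09 and -0.08 in the 3 comparisons in the same order (SE 0.14).

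Lpcat3 (ENSMUSG00000004270, chr6:124663027-124704418, plus strand), whose enzyme puts polyunsaturated fatty acids into membrane phospholipids, ran from 72.3 through a median of 88.9 to 119 CPM on Control. It ran from 82.9 through 99.4 to 113 on Red and from 86.9 through 95.4 to 114 on Tangerine. Of 12 libraries, 10 on Red and 11 on Tangerine lay above the Control median, inside the Control range, and the log2 fold changes were 0.12, 0.09 and -0.02 (SE 0.071). Its exons share 334 bases (10.22% of its exon length) with Emg1 on the opposite strand.

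**Figure D5:**
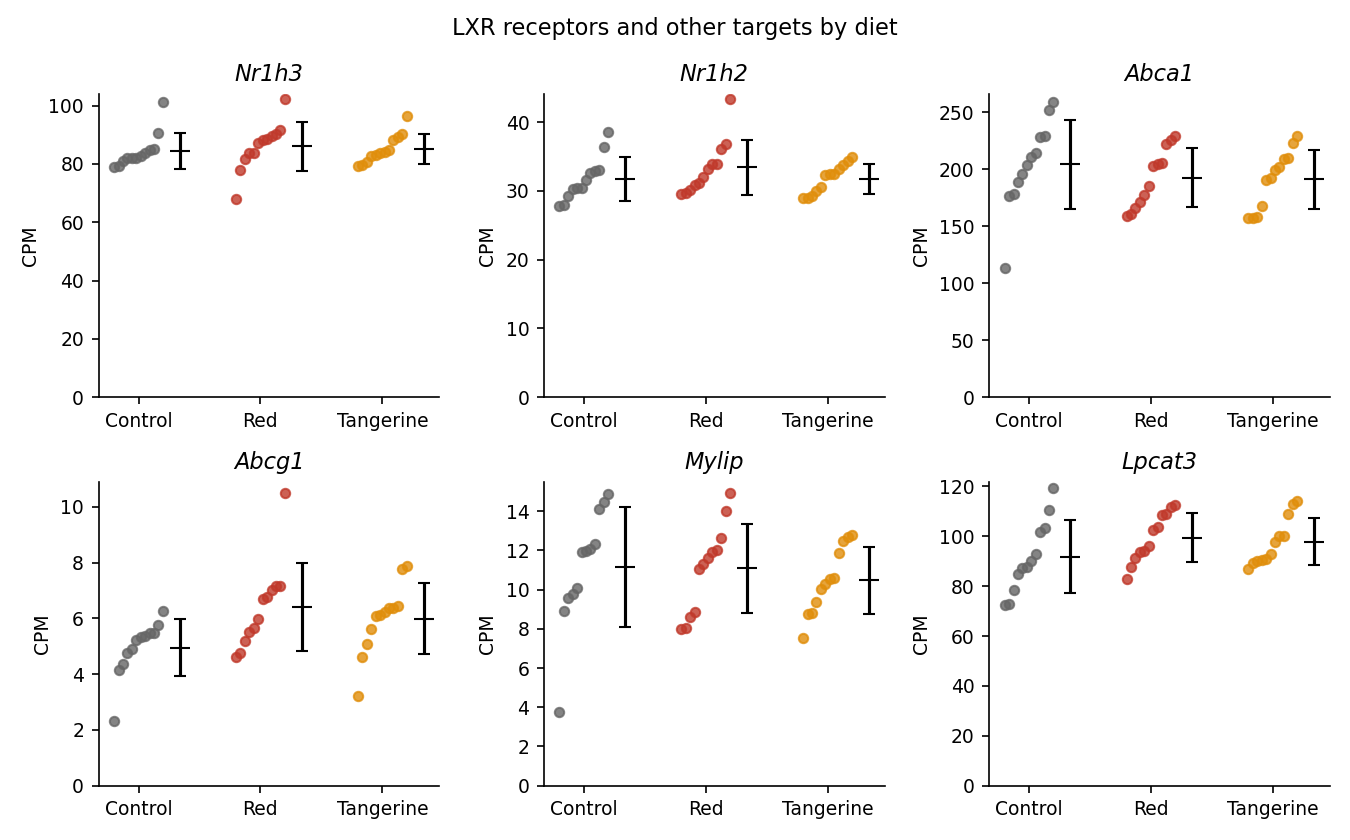
Levels of Nr1h3, Nr1h2, Abca1, Abcg1, Mylip and Lpcat3 (y axes, CPM, from 0) in the 12 livers of each diet (x axes), 1 point per library in rising order, with mean and SD. The diets overlap in every panel, and the lowest Control point of Abca1, Abcg1 and Mylip (114, 2.3 and 3.75 CPM) is the same library, Control 137.

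Mylip and Abcg1 were correlated with Kupffer cell markers within diets. Against the mean log2 CPM of 7 Kupffer cell markers, the resident macrophages of liver, Mylip had r = 0.799 (permutation p = 1e-05, adjusted p = 8e-05 over the 8 genes) and rho of 0.564 (adjusted permutation p = 0.00592). Its r was 0.893 on Control, 0.69 on Red and 0.641 on Tangerine (n = 12 each). It was 0.589 without Control 137 and Tangerine 225, the 2 libraries farthest from the median. Both libraries were also lowest in sinusoidal endothelial markers, against which none of the 8 genes was tested. The relations of Mylip and Abcg1 therefore cannot be assigned to 1 cell type. Abcg1 had r = 0.596 (permutation p = 0.00173, adjusted p = 0.00692) and rho of 0.441 (adjusted permutation p = 0.0388). The relation of Abcg1 rests on Control 137 and Tangerine 225, without which r was 0.167. On Red alone r was -0.01. Abca1 had r = 0.439 (adjusted permutation p = 0.0842). Kupffer cell marker sums ranged from 62.9 to 217.3 CPM on Control, 134.8 to 228.7 on Red and 89.33 to 207 on Tangerine.

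Of the 28 pairs among the 8 genes, 5 were correlated within diets past the threshold. Besides Abcg5 with Abcg8, the receptors varied together (Nr1h3 with Nr1h2, r = 0.747, adjusted permutation p = 0.00014; rho 0.669, adjusted p = 0.00056; 0.718 without 2 libraries). Abca1 ran against both receptors, with r of -0.527 for Nr1h3 (adjusted permutation p = 0.00834; rho -0.52, adjusted p = 0.0154) and -0.582 for Nr1h2 (adjusted permutation p = 0.00187; rho -0.466, adjusted p = 0.0389). Without the 2 libraries farthest from the median these were -0.584 and -0.416. The first did not pass the threshold without Control 137 (adjusted permutation p = 0.154), nor the second without Control 137 and Tangerine 225 (adjusted permutation p = 0.0716). Nr1h3 with Abcg1 had r = -0.565 (adjusted permutation p = 0.00826), which rests on Control 137 and Red 186: without them r was -0.217, and rho over all livers was -0.249 (adjusted p = 0.547). Abcg5 and Abcg8 were not correlated past the threshold with either receptor, with r between 0.073 and 0.268.

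The negative relations were weaker with a measure of transcript length regressed out. Abca1 has the longest annotated exons of the 8 genes (10363 bases), and Nr1h3 the shortest (2515 bases). For each library, the deviation of log2 CPM from each gene's mean over all libraries was regressed on log2 exon length over 14059 genes. The slope measures how far long transcripts were favoured relative to the mean of the libraries. It averaged -0.0034 ± 0.0463 on Control, 0.00783 ± 0.0295 on Red and -0.00443 ± 0.0364 on Tangerine (SD, n = 12 each), and was lowest in Control 137 at -0.131. Within diets Abca1 was higher where the slope was higher (r = 0.711, adjusted permutation p = 0.00024 over the 8 genes; rho 0.522, adjusted p = 0.0159; 0.566 without 2 libraries) and Nr1h3 was lower there (r = -0.641, adjusted permutation p = 0.00024; rho -0.483, adjusted p = 0.0163; -0.461 without 2 libraries). Nr1h2, Abcg1 and Mylip also passed the threshold by r (-0.475, 0.518 and 0.531) but not by rank or without Control 137. Abcg5 (2712 bases) and Abcg8 did not pass it, with r of -0.023 and 0.222. Exon length did not order these values, as Nr1h2 (3354 bases) and Mylip (3233 bases) had r of opposite sign. With the slope regressed out, r was -0.133 for Nr1h3 with Abca1, -0.395 for Nr1h2 with Abca1 and -0.356 for Nr1h3 with Abcg1, none past the threshold (adjusted permutation p = 0.765, 0.12 and 0.2). It was 0.656 for the receptors and 0.878 for Abcg5 with Abcg8, both past it. The cause of the weaker relations was not tested. With the slope as a covariate of the diet comparison, the Tangerine against Red difference was 0.35 for Abcg5 and 0.35 for Abcg8. In all, 52 relations were computed in 4 families, each adjusted within its family.

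Beyond the 8 genes, 27 of 31 other listed genes of the LXR pathway passed the filter. That list was written with earlier results of these data known, which limits what its calls can show. By edgeR's adjusted p, 0 changed for Red against Control (5 at an unadjusted p under 0.05), 0 in Tangerine against Control (2 unadjusted) and 1 for Tangerine against Red (4 unadjusted). Of all tested genes, 0.149%, 0.0142% and 1.71% changed by adjusted p and 13.3%, 5.47% and 15.1% by unadjusted p. DESeq2 gave the same counts by adjusted p, and limma-voom called 1 for Red against Control (Ttc39b). Their median log2 fold changes were 0.02, 0 and 0.01. The gene that changed was Ttc39b, whose product promotes the degradation of LXR protein. It rose from 30.1 ± 5.31 CPM on Red to 39.6 ± 6.73 on Tangerine (SD, n = 12 each; log2 fold change 0.4, SE 0.11, edgeR adjusted p = 0.0464), and 10 of the 12 Tangerine values exceeded the Red median. It was called in 13 of 36 fits that left out 1 library, over which the edgeR adjusted p ran from 0.02 to 0.0944. The call was also lost with the clock score as covariate (log2 fold change 0.23, edgeR adjusted p = 0.468), with the mouse number as covariate (0.35, 0.117), without the low-count filter (0.4, 0.0666), without Red 186 and Tangerine 216 (0.39, 0.109) and without those and Control 137 (0.39, 0.0525). Rxra, a heterodimer partner of LXR, stood at 431 ± 49.6 CPM on Control, 410 ± 48.5 on Red and 444 ± 60.9 on Tangerine (SD, n = 12 each).

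Of the lipogenic LXR targets, 5 of 7 had a fold change below 0 for Red and 6 of 7 for Tangerine against Control, and none passed the test (0 of 7 in each comparison by edgeR, DESeq2 and limma-voom; 3, 1 and 1 at an unadjusted edgeR p under 0.05, beside 13.3%, 5.47% and 15.1% of all genes). The median fold change over the 7 was -0.32 (log2) for Red and -0.2 for Tangerine against Control and 0.18 in Tangerine against Red. Srebf1, the transcription factor through which LXR raises fatty acid synthesis, averaged 425 ± 102 CPM on Control, 340 ± 80.1 on Red and 434 ± 101 on Tangerine (SD, n = 12 each; edgeR adjusted p = 0.299 for Red against Control and 0.197 for Tangerine over Red). Fasn, the fatty acid synthase, had 2110 ± 977, 1450 ± 553 and 1830 ± 1020 CPM in the same order. Scd1, the stearoyl-CoA desaturase, averaged 22200 ± 9320, 20300 ± 6240 and 15000 ± 6010 CPM, so its lowest mean was on Tangerine (edgeR adjusted p = 0.732 against Control). The SDs of Fasn and Scd1 were larger than most differences between their means.

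Lipoprotein and bile acid targets and the enzymes around the LXR ligands gave 0 calls in 6 and 4 tested genes in each comparison by edgeR, DESeq2 and limma-voom; at an unadjusted edgeR p under 0.05 the targets gave 0, 1 and 1, and the enzymes 0 in each, beside the same shares of all genes. Cyp7a1, the rate-limiting enzyme of bile acid synthesis, averaged 88.9 ± 55.5 CPM on Control, 70.3 ± 41.4 on Red and 74 ± 31.9 on Tangerine (SD, n = 12 each). Pltp, the phospholipid transfer protein, stood at 72.5 ± 24, 69.6 ± 20.8 and 54.7 ± 13.9 CPM (edgeR adjusted p = 0.812 for Tangerine against Control). Apoe differed by at most 0.07 on the log2 scale. Cyp27a1, which makes an oxysterol ligand of LXR, averaged 464 ± 49.9 CPM on Red and 488 ± 40.7 on Tangerine. Apoc2 is listed at 0 in every library although liver makes it, and nothing is read from it.

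Genes of sterol uptake and synthesis under SREBP2, the regulator that answers low sterol, gave 0 calls among 10 tested genes of 11 listed by edgeR in each comparison, and 4, 1 and 5 at an unadjusted p under 0.05, beside 13.3%, 5.47% and 15.1% of all tested genes. DESeq2 called 0, 0 and 2 of them (1.37%, 0.0498% and 3.39% of all genes) and limma-voom 4, 0 and 2 (10.5%, 0.0142% and 5.2% of all genes). Their median was -0.11 (log2) for Red and -0.01 for Tangerine against Control and 0.24 in Tangerine against Red. Insig1, which holds SREBP in the endoplasmic reticulum, averaged 433 ± 166 CPM on Control, 418 ± 76.6 on Red and 540 ± 159 on Tangerine (SD, n = 12 each). Hmgcs1, an early enzyme of cholesterol synthesis, averaged 401 ± 192, 297 ± 90.1 and 332 ± 88 CPM in the same order.

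The other exporters of the canalicular membrane, at which ABCG5 and ABCG8 work, are given for comparison. By edgeR 0 of 6 were called in each comparison (3, 0 and 2 at an unadjusted p under 0.05), while DESeq2 called 1, 0 and 1 and limma-voom 1, 0 and 2, beside the shares of all genes given for the SREBP2 genes. Both tools called Abcb1a for Red against Control and Abcb11 for Tangerine against Red, and limma-voom also Abcb1a there. Abcb11, the bile salt export pump, was highest on Red, with 403 ± 36.4 CPM on Control, 434 ± 44.7 on Red and 375 ± 43.6 on Tangerine (SD, n = 12 each; Tangerine against Red -0.21, SE 0.063, edgeR adjusted p = 0.0726). Abcg2, a transporter of the same subfamily, averaged 76.8 ± 12, 87.4 ± 8.93 and 80.4 ± 10.1 CPM, and Abcb4, the phospholipid exporter, 181 ± 15.8, 205 ± 30.6 and 196 ± 42.6 CPM. Abcc2 averaged 569 ± 116, 548 ± 87.9 and 615 ± 130 CPM, with its lowest mean on Red (edgeR adjusted p = 0.479 for Tangerine against Red). Abcb1a, a multidrug exporter named after its values were seen, also had its lowest mean on Red, with 1.93 ± 0.541, 1.19 ± 0.404 and 1.65 ± 0.332 CPM (Red against Control -0.69, SE 0.16, edgeR adjusted p = 0.0591).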

How the data were processed

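Per the labels' protocols, total RNA of preserved liver was extracted with column kits and made into libraries with a strand-keeping kit. The authors deposited 1 table of raw read counts per gene. FastQC, Trimmomatic, edgeR and the build GRCm38.p6 are named in the submitters' processing notes; the aligner, counting program and strand setting are not given in the sources used here. The 8 genes and all gene lists were chosen with earlier results of these data known.

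Identifiers were matched to GENCODE M21, which named 53620 of 53715; the other 95 held 0.001774% of counts. The smallest chi-square per degree of freedom between libraries of a diet was 13.7 (198 pairs), so each library counted as 1 replicate. Counts were filtered with filterByExpr (count 10, total 15) and scaled by TMM in edgeR 4.0.16 (R 4.3.3). The robust quasi-likelihood test was fitted to all 36 libraries, with Benjamini-Hochberg adjustment and a threshold of 0.05. The standard error is the absolute log2 fold change over the root of F. Correlations used log2 CPM (prior count 2) less the diet mean and 100000 permutations within diets (scipy 1.17.1). The length slope was added after seeing the data.

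Named genes were the 8 members, listed pathway genes past the threshold, up to 4 more per group by mean level, and the 5 genes most like Abcg5 and Abcg8; some of these are not reported here. On simulated counts for Red against Control (13995 genes, 1 dispersion for all genes), the test recovered 61.2% of 1.5-fold and 98% of 2-fold changes. False calls made up 6.51% of calls. Smaller changes, such as the 1.27-fold differences of Abcg5 and Abcg8, were not simulated. The simulated dispersion was a set value, not estimated from these data, so the shares do not give the power for the 8 genes. Alternatives were DESeq2 1.42.0 (size factors and test), limma-voom (limma 3.58.1), sva 3.50.0 surrogate variables, other filters, the prior count, covariates, only the 2 groups compared, and libraries left out.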

Additional observations from a re-analysis of the deposited data

How the results depend on the processing

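No paired analysis was possible because no mouse number occurred in more than 1 diet. Leaving out Control 137 with Red 186 and Tangerine 216, leaving it out with Tangerine 225, and using the length slope were alternatives chosen after seeing the data. For Red against Control, the 0 of 8 genes called became 1 with DESeq2 (Abcg5), 1 with the length slope as covariate (Abcg5) and 2 with limma-voom (Abcg5 and Abcg8), and 0 to 1 with each library left out (1 without Control 120 or Control 188). Of all tested genes, DESeq2 called 167, the fit with the length slope 192 and limma-voom 1482. For Tangerine against Red, the 2 of 8 called became 0 with the clock score, 0 with the mouse number, 0 without Red 186 and Tangerine 216 and 1 without those and Control 137 (Abcg5), and 1 to 2 with each library left out. Of the other LXR pathway genes, the 0 called for Red against Control became 1 with limma-voom and 3 with 5 surrogate variables (Acaca, Cyp46a1 and Elovl6). Of all tested genes, 1482 and 404 were called in those fits, in that order. The 1 called for Tangerine against Red became 0 without the low-count filter, 0 with the clock score, 0 with the mouse number, 0 without Red 186 and Tangerine 216, 0 without those and Control 137, 2 with 5 surrogate variables and 2 with only the 2 groups compared, and 0 to 1 with each library left out. For Tangerine against Control the counts were 0 under every alternative run. The cause of these shifts was not tested.

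The 5 correlated pairs became 2 without Control 137 and Tangerine 225 and 2 with the length slope regressed out, and 3 to 7 with each library left out. The 2 genes correlated with Kupffer cell markers became 1 without Control 137 and Tangerine 225, and 1 to 3 with each library left out. The 2 correlated with the clock score by Pearson's r were 2 under each of these alternatives. By rank neither passed the threshold (Spearman's rho, adjusted permutation p = 0.0812 for both). Abcg5 with Abcg8 had r between 0.816 and 0.871 with each library left out, and 0.759 with the clock score regressed out. All genes called for Tangerine against Red, 241, became 136 without the low-count filter, 421 with DESeq2, 732 with limma-voom, 0 with the clock score, 32 with the mouse number, 769 with surrogate variables, 333 with only the 2 groups compared, 525 with the length slope, 86 without Red 186 and Tangerine 216, and 120 without those and Control 137. Those called for Red against Control, 21, ran from 4 with the clock score to 1482 with limma-voom, and for Tangerine against Control, 2, from 1 with the mouse number to 100 with surrogate variables. Of 312 fold changes of the 8 genes under alternatives other than leaving out single libraries, 310 moved by less than 1 within-diet SD. The others were Abcg5 and Abcg8 for Tangerine against Red with the clock score. That bound is wide. Abcg8 for Red against Control went from -0.25 to -0.05 with the clock score and counted as inside it. A change of direction counted only past the threshold. None occurred among these or 1674 values of the other named and listed genes. Both rules are loose for small fold changes, so nothing is read from these counts.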
